A study of Homo sapiens with 16 samples.

Results

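The 4 libraries of HCC70 cells carrying a hairpin against RBPJ or NFIB were set as one group against 6 libraries carrying a control hairpin, which took 10 of the 16 libraries of the series. Of the 11282 genes in the deposited table, 10577 had a normalised signal of at least 5 in at least 2 of the 10 libraries and were tested. The 236 genes described here (2.23% of those tested) were chosen by these same signal values: in each, all 4 RBPJ and NFIB libraries lay outside the range of the 6 controls on the same side, 120 above it and 116 below it. The 2 directions make up 1.13% and 1.1% of the genes tested. The levels of the 236 genes are therefore a description and not a test.

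HCC70 is an established cell line from a human breast tumour, basal-like and without oestrogen, progesterone or HER2 receptors. The series asked which regulators set the composition of basal-like cell populations. Each of the 10 libraries is the bulk RNA of cells infected with 1 short hairpin RNA (shRNA), a short RNA that lowers a chosen transcript. The labels give each of them its own hairpin. The groups were RBPJ (2 libraries with hairpins against RBPJ), NFIB (2 libraries with hairpins against NFIB), and shRFP, shLACZ and shLUC (2 libraries each), whose names are those of a fluorescent protein, a bacterial enzyme and a luciferase that human cells do not encode. All 10 libraries thus share infection with a hairpin construct, and none is of untreated cells. Libraries labelled KLF5, FOXA1 and plko (2 each) were kept apart for a later comparison. The name plko is that of the empty vector and not of a control hairpin. No source used here says whether a library is 1 culture or several pooled ones, or which libraries shared a barcoding batch or were run again.

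RBPJ is the DNA-binding protein through which cleaved Notch receptors act on their target genes, and without Notch it recruits repressors. NFIB is a nuclear factor I protein, one of a family of dimers that bind a palindromic site and act on growth and differentiation genes of many epithelia, the breast among them. Of the 236 genes, 8 encode enzymes of cholesterol synthesis. That pathway joins acetyl-CoA units into mevalonate, turns mevalonate into isoprenoids, closes squalene into lanosterol and trims lanosterol to cholesterol. Its enzymes are raised together by the factor SREBP2 when cell membranes run short of sterol, commonly with the factor NF-Y, which binds the letters CCAAT.

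The hairpins differed in how low their own target was. Hairpin libraries are listed here and below in the order RBPJ 1, RBPJ 2, NFIB 1 and NFIB 2, and control libraries by their lowest, median and highest value. RBPJ (ENSG00000168214) had a normalised signal of 43.3, 8.53, 49.9 and 42.2, against 43.1, 47.7 and 54.9 in the controls. The library labelled RBPJ 1 was therefore at 89.5% of the control mean and inside the control range, whereas RBPJ 2 was at 17.6%. NFIB (ENSG00000147862) was at 399, 201, 238 and 42.2, against 309, 330 and 366 in the controls. NFIB 2 was at 12.6% of the control mean and NFIB 1 at 71.1%, and RBPJ 2 was also below all controls for NFIB, at 60.1%. Because the level of its target goes against its label, some counts below are also given without the library labelled RBPJ 1. They are those of genes that passed, of genes outside the control range and of genes that differed between the targets. Counts of sterol enzymes below the range in all 4 libraries, and counts with the FOXA1 and KLF5 hairpins, are given with it only.

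The other nuclear factor I genes did not separate the groups. NFIX was at 83.3, 36.5, 70.4 and 57.8 against 64.0, 111 and 133 in the controls, so the groups overlapped. The log2 differences of NFIA, NFIC and NFIX were -0.18, -0.07 and -0.70. None of the 4 family members passed the test described next.

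Depth moved with the groups. The 4 RBPJ and NFIB libraries held 1162099 to 3090666 recovered reads and the 6 controls 580015 to 1264671, so that 3 of the 4 were deeper than every control. Summed signal of 11 epithelial markers was 4381 to 9968 in the RBPJ and NFIB libraries and 5649 to 8032 in the controls, and the oestrogen receptor gene ESR1 did not exceed 10.7 in any of the 16 libraries. Of 11 fibroblast and endothelial markers, 5 were in the table, and their sum was 27.8 to 51.0 in the RBPJ and NFIB libraries and 13.2 to 31.5 in the controls. COL1A1, a collagen chain of fibroblasts, was at 11.2, 15.2, 24.6 and 32.5 against 6.8 to 25.8. Of 9 leukocyte markers, 2 were in the table, with PTPRC at no more than 3.23 and CD68 at 15.4, 48.8, 15.03 and 30.8 against 21.1 to 31.05 in the controls. For CD68, a marker of macrophages, RBPJ 2 was above every control and RBPJ 1 and NFIB 1 below them. The part of depth and of these markers in the differences below was not tested.

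Few genes passed a test over the whole table. Limma, a linear model with a spread shared across genes, was fitted to log2(signal + 1) of the 10 libraries with Benjamini-Hochberg adjustment over all 10577 genes. At an adjusted p under 0.05, 6 genes (0.0567% of those tested) passed, 1 higher (0.00945%) and 5 lower (0.0473%), and 1107 genes (10.5%) had an unadjusted p under 0.05. All 6 are among the 236 genes, and their pooling was proposed with results of these data known, so the p-values are not independent support. Over all genes tested the median log2 difference was 0.03. Without the library labelled RBPJ 1 the count was 13. It was 0 without NFIB 1 or without shRFP 2 (646 and 951 at an unadjusted p under 0.05), 12 without RBPJ 2, 73 without NFIB 2, 3 without shRFP 1 and 3 without shLACZ 2.

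HSPA1B (ENSG00000204388), an inducible chaperone of the HSP70 family, was the gene that rose. Its signal was 78.6, 119, 93.6 and 119, against 37.4, 49.8 and 52.9 in the controls. The lowest of the 4 lay well clear of the highest control, and the log2 difference was 1.07 ± 0.17 (SE, limma adjusted p = 0.0157, n = 4 and 6). For HSPA1B the adjusted p was 0.088 without NFIB 1 and 0.0509 without shRFP 2. HSPA1A encodes the same protein from a neighbouring, near-identical gene, so the counting may have split reads between the copies. HSPA1A was at 273, 422, 408 and 295 against 297, 352 and 399, a log2 difference of -0.03 with overlapping groups. Of the 12 heat shock proteins tested, HSPA1B alone lay outside the control range, where 2.23% of all genes tested did. The list's median difference was -0.06.

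The cytoplasmic poly(A)-binding protein gene PABPC1 (ENSG00000070756), whose product coats mRNA tails and aids their translation, fell. Its signal was 356, 367, 274 and 326 against 510, 676 and 768, with no overlap. The log2 difference was -0.99 ± 0.15 (SE, limma adjusted p = 0.0157, n = 4 and 6). For PABPC1 the adjusted p was 0.088 without NFIB 1 and 0.0509 without shRFP 2. PABPC3, a near copy of PABPC1, had the same pattern, at 71.6, 62.1, 43.7 and 67.1 against 95.7, 131 and 141. The log2 difference was -1.04 ± 0.17 (SE, limma adjusted p = 0.0157), and reads of the 2 copies may be shared. The adjusted p of PABPC3 was 0.0912 without NFIB 1, 0.07 without shRFP 2 and 0.0595 without shRFP 1. PABPC4, a more distant member of the family, was at 150, 264, 206 and 220 against 155, 235 and 280, a log2 difference of -0.16 with overlapping groups.

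NRP1 (ENSG00000099250), the semaphorin and VEGF co-receptor neuropilin-1, was nearly level across the hairpins. Its signal was 45.5, 46.9, 45.1 and 51.0 against 64.6, 95.1 and 110 in the controls. NRP1 fell, with a log2 difference of -0.93 ± 0.17 (SE, limma adjusted p = 0.0353, n = 4 and 6). The adjusted p was 0.0661 without the library labelled RBPJ 1. It was 0.119 without shRFP 2, 0.151 without NFIB 1, 0.108 without shLACZ 2, 0.13 without shLUC 2, 0.062 without shLACZ 1 and 0.0671 without shLUC 1. With RBPJ and NFIB as separate levels it was 0.0533.

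ENSG00000269242, an identifier for which the tables used here give no symbol, fell as well. It was at 1.99, 4.27, 2.05 and 5.06 against 8.84, 16.9 and 23.8 in the controls. The log2 difference was -1.99 ± 0.33 (SE, limma adjusted p = 0.0177), but its hairpin libraries held only 8, 9, 3 and 12 reads, so the size is imprecise. It was also low in libraries that were not part of the comparison, at 2.21 and 0 in plko, 0 and 0 with the KLF5 hairpins, and 3.29 and 7.51 with the FOXA1 hairpins. With the plko libraries added to the controls its adjusted p was 0.54 (log2 -1.19). Without shRFP 1, shLACZ 1 or shLACZ 2 the adjusted p of ENSG00000269242 was 0.0823, 0.062 and 0.0801, and with a filter of 20 or all 16 libraries in the fit 0.081 and 0.0876.

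ACAT2 (ENSG00000120437), the cytosolic thiolase that joins acetyl-CoA units at the entry of sterol synthesis, completed the 6. Its signal was 79.1, 72.5, 70.4 and 120 against 141, 167 and 198 in the controls. ACAT2 fell, with a log2 difference of -0.99 ± 0.16 (SE, limma adjusted p = 0.0177, n = 4 and 6). The 3′ end of ACAT2 overlaps that of TCP1 on the other strand, and no source used here says whether counting used strand. TCP1, a subunit of the cytosolic chaperonin, was at 153, 205, 200 and 162 against 148, 170 and 195, a log2 difference of 0.06. The adjusted p of ACAT2 was 0.113 without NFIB 1, 0.0713 without shRFP 1, 0.07 without shRFP 2 and 0.0722 without shLACZ 2.

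**Figure D1:**
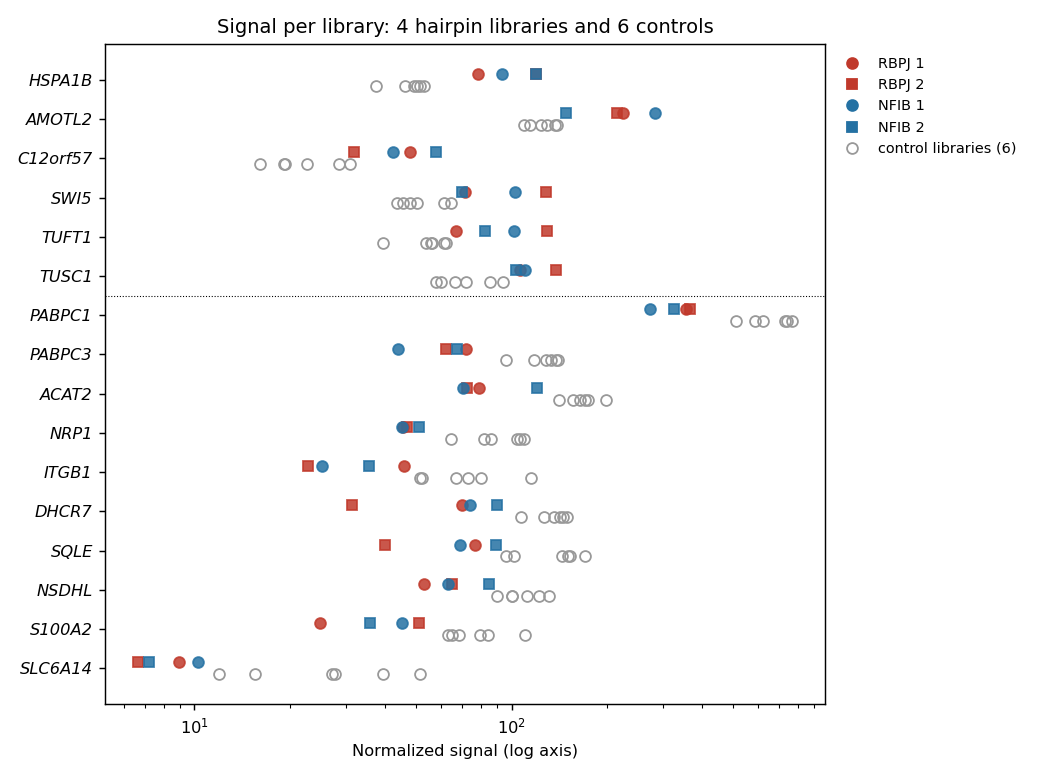
Normalised signal (log axis) of 16 genes with all 4 RBPJ and NFIB libraries outside the control range, 6 above it (top) and 10 below it. Filled symbols are the single hairpin libraries and open circles the 6 controls. HSPA1B at the top and PABPC1 and PABPC3 below the dotted line have the widest gaps to the nearest control.

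ACAT2 was 1 of 8 enzymes of sterol synthesis whose 4 hairpin values were all below the control range. The list held 20 enzymes, 18 of which were tested, and among the 8 were ACAT2, IDI1, SQLE, NSDHL and DHCR7, or 8 of 18 where 1.1% of all genes were so placed. ACAT2 was the only one of the 18 that passed the test. All 18 had a negative log2 difference, where 45.6% of all genes tested did, and 13 had all 4 hairpin libraries below the control mean, where 10.0% of all genes did. Nothing is read from these shares about the list, since the genes were chosen on the same contrast. The median was -0.72, and -0.76 without the library labelled RBPJ 1, where all genes had 0.03. No enzyme of the list was above the control range. In bulk RNA, fewer cells making a transcript and less of it per cell cannot be told apart.

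At the start of the pathway HMGCS1, the synthase of the mevalonate branch, was at 49.7, 19.9, 23.9 and 48.1 against 46.5, 60.5 and 91.8, so that RBPJ 1 and NFIB 2 lay inside the control range. IDI1, the isomerase that makes the reactive isoprenoid, was at 300.4, 95.3, 202 and 352 against 390, 421 and 434 (log2 -0.96 ± 0.24). RBPJ 2 was the lowest library for both genes. The controls of IDI1 lay close together, while its hairpin libraries were spread widely below them.

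In the squalene steps the epoxidase gene SQLE had signals of 76.8, 39.8, 69.0 and 89.4 against 95.7, 147 and 171 (log2 -1.0 ± 0.21). LSS, which closes the ring to lanosterol, was at 23.1, 10.9, 19.1 and 23.2 against 26.8, 30.1 and 38.4 (log2 -0.73 ± 0.22). Both were lower in all 4 hairpin libraries than in any control, and both were lowest in RBPJ 2.

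In the steps from lanosterol to cholesterol DHCR7, the last reductase of the pathway, was at 69.6, 31.3, 73.8 and 90.3 against 107, 139 and 150 (log2 -1.10 ± 0.22). NSDHL, a sterol dehydrogenase, was at 52.96, 65.0, 62.9 and 84.8 against 90.0, 106 and 132 (log2 -0.72 ± 0.16). EBP, a sterol isomerase, was at 61.9, 55.5, 45.1 and 74.2 against 80.7, 86.7 and 95.8 (log2 -0.57 ± 0.16). RBPJ 2 was lowest only for DHCR7 among these 3, with RBPJ 1 lowest for NSDHL and NFIB 1 for EBP. MSMO1, a sterol oxidase, was at 869, 188, 480 and 828 against 788, 973 and 1016, so its groups overlapped.

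The size of the shift differed among the 4 hairpins. The median log2 difference of the 18 enzymes from the control mean was -0.46 in RBPJ 1, -1.32 in RBPJ 2, -0.88 in NFIB 1 and -0.23 in NFIB 2, and -0.10 to 0.24 in the controls. Below every control were 12 of the 18 enzymes in RBPJ 1, 17 in RBPJ 2, 17 in NFIB 1 and 8 in NFIB 2. Among all genes tested those shares were 15.1%, 18.2%, 17.9% and 14.2%. The 8 enzymes in NFIB 2 are those that were below the range in all 4 libraries. NFIB 2, in which the NFIB transcript was lowest, had the smallest median, and RBPJ 2, in which RBPJ was lowest, the largest. By stage the pooled median was -0.99 for the 3 enzymes of mevalonate formation, -0.62 for the 5 that follow to farnesyl diphosphate, -0.73 for the 3 from squalene to lanosterol and -0.58 for the 7 tested of 9 from lanosterol to cholesterol.

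**Figure D2:**
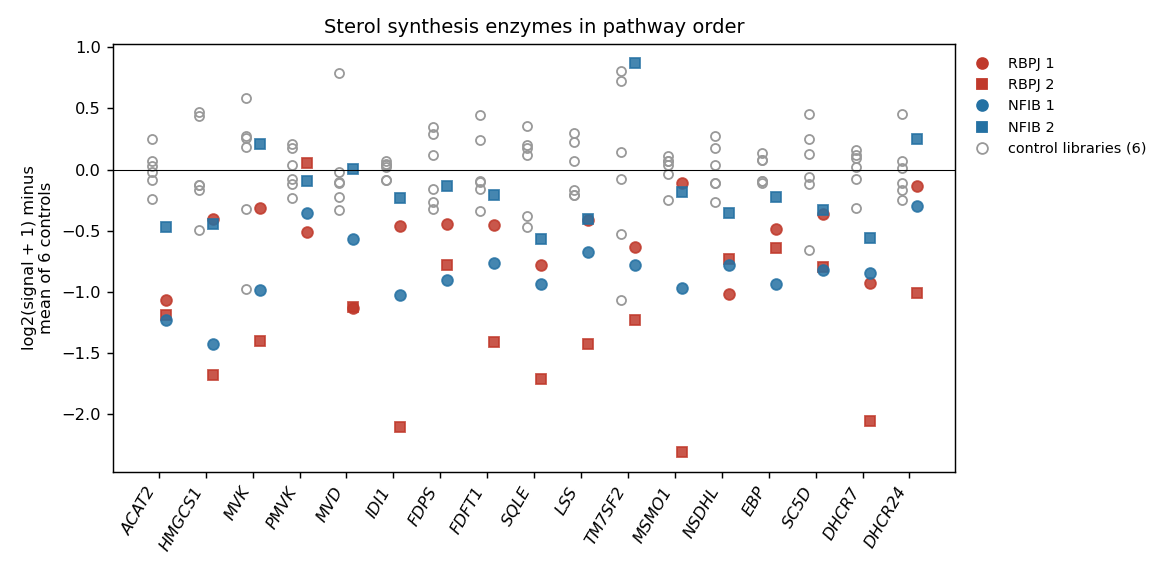
Difference of log2(signal + 1) from the mean of the 6 controls for 17 sterol synthesis enzymes, from the first step (left) to the last. Filled symbols are single hairpin libraries and open circles controls. Red squares (RBPJ 2) lie lowest for most enzymes, and blue squares (NFIB 2) lie nearest the controls, with a median of -0.23 over the 18 tested.

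Most genes of sterol sensing and of fatty acid synthesis had a negative difference, where 45.6% of all genes tested did. All 4 hairpin libraries were below the control range for 1.1% of all genes tested. Nothing is read from the counts of these short lists beside those shares. Of 15 genes of sterol sensing, uptake and export none was outside the control range on all 4 libraries, and 13 had a negative difference. Their median was -0.23, made of -0.02, -0.50, 0.00 and -0.06, with controls from -0.15 to 0.23. Only RBPJ 2 thus had a median below those of the controls. SREBF2, which encodes SREBP2, had a log2 difference of -0.09. Of 12 fatty acid genes 11 had a negative difference. Their median was -0.44, made of -0.04, -0.94, -0.28 and -0.17, with controls from -0.11 to 0.12, so RBPJ 1 was among the controls. Only ME1, the malic enzyme that supplies NADPH, was below the range in all 4 libraries. ME1 was at 27.1, 23.2, 31.4 and 18.6 against 32.3, 40.5 and 43.9. SCD, the stearoyl-CoA desaturase, was at 158, 25.1, 73.8 and 116 against 140, 158 and 206. RBPJ 1 was inside the range for SCD, and the other 3 hairpin libraries were below it, RBPJ 2 lowest.

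Promoter sequence was read for genes of the group to show what letters stand before their starts. The 250 bases before the first listed RefSeq start (assembly GRCh38.p14) are shown 5′ to 3′ on the gene's strand for DHCR7, the sterol enzyme with the largest difference, for NSDHL and IDI1, sterol enzymes with many and with no NF-Y boxes, and for HSPA1B, the gene that rose. Capitals mark NF-Y boxes, the letters CCAAT or, on the other strand, ATTGG. DHCR7 lies at chr11:71448394-71448643 (minus strand), NSDHL at chrX:152830813-152831062 (plus strand), IDI1 at chr10:1056705-1056954 (minus strand) and HSPA1B at chr6:31827488-31827737 (plus strand). All 4 windows are upstream of the annotated start, outside the transcript that starts there.
DHCR7: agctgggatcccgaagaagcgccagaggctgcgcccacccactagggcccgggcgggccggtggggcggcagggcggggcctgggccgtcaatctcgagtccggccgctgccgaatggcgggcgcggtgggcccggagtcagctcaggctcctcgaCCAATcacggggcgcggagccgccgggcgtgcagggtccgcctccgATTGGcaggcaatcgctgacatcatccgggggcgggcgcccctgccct
NSDHL: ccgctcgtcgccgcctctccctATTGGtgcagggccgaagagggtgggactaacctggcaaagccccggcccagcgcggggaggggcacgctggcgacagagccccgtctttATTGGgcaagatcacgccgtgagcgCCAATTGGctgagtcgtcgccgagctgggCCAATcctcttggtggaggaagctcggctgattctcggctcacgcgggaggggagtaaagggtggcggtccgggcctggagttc
IDI1: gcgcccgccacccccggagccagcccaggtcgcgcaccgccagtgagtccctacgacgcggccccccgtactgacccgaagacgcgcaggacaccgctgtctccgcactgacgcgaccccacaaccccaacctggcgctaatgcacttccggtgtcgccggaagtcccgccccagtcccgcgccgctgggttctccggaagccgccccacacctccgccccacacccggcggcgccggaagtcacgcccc
HSPA1B: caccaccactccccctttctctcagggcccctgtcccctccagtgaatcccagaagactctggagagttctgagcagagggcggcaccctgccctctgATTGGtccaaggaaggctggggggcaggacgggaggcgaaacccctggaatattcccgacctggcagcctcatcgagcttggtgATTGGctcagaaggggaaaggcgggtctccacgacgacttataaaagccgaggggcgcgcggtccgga
DHCR7 holds 2 such boxes, the first bases of which are 94 and 48 bases before the start. NSDHL holds 5 matches, 2 of which overlap in the letters CCAATTGG, IDI1 none and HSPA1B 2. A box is a match of letters and no measurement of binding.

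Shares of promoters with a motif were counted over the 300 bases from 250 before to 50 after the start, on both strands. A promoter entry was found for 98 of the 120 genes above the control range, 93 of the 116 below it and 8741 of all 10577. The RBPJ core TTCCCAC was in 3.06% of the promoters of the higher genes, 4.3% of those of the lower genes and 5.66% of all. The nuclear factor I motif TTGGCA was in 11.2%, 10.8% and 8.87%. Its palindrome, TTGGC followed after 5 bases by GCCAA, was in none of either group and in 4 of all promoters. The sterol regulatory element TCACNCCAC was in none of either group and in 1.1% of all, and the NF-Y box in 38.8%, 40.9% and 37.2%. Matches of TTGGCA and ATTGG can overlap, as in the letters ATTGGCA. Among the 18 sterol enzymes only 13 had an entry, under 80%, so a check over that list is void. Of the 13, 11 held an NF-Y box and 1 the motif TTGGCA. None held the sterol regulatory element, the RBPJ core or the palindrome, and nothing is read from these counts.

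Outside the sterol list, the lower genes with the largest differences had varied products. SLC6A14, a transporter of neutral and cationic amino acids, had the largest difference of those with a mean signal of at least 20 (log2 -1.55 ± 0.32 SE). It was at 8.95, 6.64, 10.2 and 7.17 against 12.0, 27.5 and 51.5, a wide control range. ITGB1, the beta-1 integrin subunit of matrix receptors, was at 45.8, 22.8, 25.3 and 35.4 against 51.4, 69.9 and 115 (log2 -1.15 ± 0.23). ITGB1 did not pass the test with all 10 libraries (limma adjusted p = 0.09) and passed without the library labelled RBPJ 1 (adjusted p = 0.0343).

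S100A2, a calcium-binding protein of basal epithelium, was at 24.9, 51.2, 45.1 and 35.9 against 62.9, 73.9 and 110 (log2 -1.0 ± 0.20). ADD3, an adducin that links spectrin to actin, was at 94.98, 36.5, 64.9 and 92.4 against 115, 121 and 160 (log2 -0.92 ± 0.22). GALNT7, which extends O-linked sugars on proteins, was at 49.7, 23.2, 26.0 and 47.7 against 55.1, 67.5 and 79.0 (log2 -0.94 ± 0.21). The groups were apart for all 3, with RBPJ 1 lowest for S100A2 and RBPJ 2 lowest for ADD3 and GALNT7. TFPI, an inhibitor of blood coagulation, was at 7.96, 19.9, 13.7 and 21.1 against 23.8, 25.6 and 44.8. RPL6, a ribosomal protein gene with many near copies that may share its reads, was at 13.4, 18.0, 22.6 and 22.4 against 23.3, 39.6 and 45.0.

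Genes of the lists that were below the range with smaller differences included LDHA, DSP and CDC20. LDHA, lactate dehydrogenase, was at 122, 205, 152 and 180 against 210, 266 and 317 (log2 -0.69 ± 0.17 SE). Of 18 hypoxia and glycolysis genes it was the only one so placed, where 1.1% of all genes tested were, and the list's median was -0.20. DSP, the desmosome protein desmoplakin, was at 234, 246, 249.4 and 208 against 268, 318 and 420 (log2 -0.52 ± 0.15). CDC20, an activator of the ligase that ends mitosis, was at 107, 104, 81.3 and 115 against 122, 125 and 133 (log2 -0.32 ± 0.14). Of 25 mitosis genes CDC20 was the only one below the range, where 1.1% of all genes tested were, and none passed, where 0.0567% did. Nothing is read from such counts in a list of this size. The median of the mitosis list was -0.31, made of -0.25, -0.30, -0.52 and 0.03, with controls from -0.10 to 0.10. NFIB 2 was thus among the controls. All 4 hairpin libraries were below the control mean for 10 of the 25 genes, where 10.0% of all genes tested were so placed. In the mitosis list 21 genes had a negative difference, where 45.6% of all genes tested did. CENPE, a kinetochore motor, was the lowest of these in log2 difference (-1.15) at 34.8, 9.48, 15.03 and 23.6 against 32.4, 38.9 and 69.5, with RBPJ 1 among the controls. Without the library labelled RBPJ 1, CENPE was the mitosis gene that passed (log2 -1.44, limma adjusted p = 0.0443). In the hypoxia list CA9, a carbonic anhydrase, passed without that library (log2 -2.17, limma adjusted p = 0.0443). CA9 was at 53.5, 3.32, 10.9 and 16.03 against 15.1, 47.0 and 80.2 in the controls, so RBPJ 1 and NFIB 2 lay inside the control range.

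The 15 genes with the largest differences above the control range, at a mean signal of at least 20, had log2 differences from 0.66 to 1.07, HSPA1B first. AMOTL2, an angiomotin-like protein of cell junctions, was at 225, 215, 284 and 148 against 109, 127 and 139 (log2 0.76 ± 0.16 SE). SWI5, a partner in recombination repair, was at 71.1, 128, 102 and 69.6 against 43.6, 49.1 and 64.6 (log2 0.79 ± 0.19). C12orf57 was at 47.7, 31.8, 42.4 and 57.8 against 16.2, 21.0 and 31.0 (log2 0.95 ± 0.22). NFIB 2 was the library nearest the controls for AMOTL2 and SWI5, and RBPJ 2 for C12orf57.

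TUFT1, first described as a protein of tooth enamel, was at 66.6, 129, 102 and 82.3 against 39.4, 55.9 and 62.1 (log2 0.76 ± 0.19). TUSC1 was at 106, 138, 111 and 103 against 57.8, 69.2 and 94.3 (log2 0.66 ± 0.17). SETD5, a SET-domain protein, was at 33.8, 39.8, 36.2 and 35.4 against 12.8, 26.1 and 28.0 (log2 0.68 ± 0.22). These groups did not overlap, and none of these genes passed the test over all genes. The other 8 were the zinc-finger gene ZNF267 (log2 0.83), the syndecan SDC3 (0.78), the golgin GCC1 (0.74), the mitochondrial ribosomal protein gene MRPL2 (0.72), the cytochrome P450 CYP2E1 (0.71), the elongation factor gene ELL (0.68), SPATA2 (0.67) and TTC14 (0.67). MCM5, a subunit of the replicative helicase, was at 109, 135, 114 and 131 against 82.6, 95.9 and 98.7 (log2 0.37 ± 0.14). Among 20 genes of G1/S and DNA replication it was the only one outside the range, where 2.23% of all genes tested were. The median of that list was 0.11.

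Some further genes were picked after their values were seen because their products are well known. GPX4, which repairs oxidised membrane lipids, was at 399, 391.7, 402 and 531 against 214, 269 and 336. SQSTM1, an autophagy receptor, was at 282, 323, 352 and 332 against 213, 231 and 275. CDC42, a small GTPase of the cytoskeleton, was at 352, 453, 382 and 474 against 546, 725 and 1191. The groups did not overlap for these 3, with log2 differences of 0.64, 0.45 and -0.82. REST, a repressor of neuronal genes, was at 24.4, 13.3, 19.1 and 21.5 against 28.2, 32.2 and 34.7 (log2 -0.72). PPIB, a foldase of the endoplasmic reticulum, was at 152, 271, 144 and 273 against 293, 333 and 380 (log2 -0.74).

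The higher and the lower genes differed in signal, which is not scaled to gene length. The median of the mean signal was 22.4 for the 120 higher genes, 72.9 for the 116 lower genes and 28.0 for all genes tested. Among genes with a mean under 20 the higher made up 1.28% and the lower 0.404%, and among those over 100 the shares were 1.25% and 2.55%. At least 1 of the 10 libraries held 3 or fewer reads for 28 of the 120 higher genes, 4 of the 116 lower and 1721 of all 10577. The differences of the scarcest genes are therefore imprecise. The median log2 difference was 0.62 in the higher genes (0.18 to 2.01) and -0.57 in the lower (-1.99 to -0.20). At the edge of the rule, SNX14 was just inside on the higher side, with a lowest hairpin value of 21.13 against a highest control of 21.12, and ARFIP1 just outside at 60.33 against 60.35. On the lower side COX8A was just inside, 578.0 against 578.28, and GSDMC just outside, 49.31 against 49.26.

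Over the group as a whole the shifts of the 4 hairpin libraries were of similar size. The median log2 difference from the control mean of the higher genes was 0.55, 0.57, 0.72 and 0.56 in RBPJ 1, RBPJ 2, NFIB 1 and NFIB 2, and that of the lower genes -0.56, -0.54, -0.66 and -0.47. Since each library had to lie outside the control range for a gene to be counted, these sizes are conditioned by the rule and support nothing about single libraries. Without the library labelled RBPJ 1, 454 genes had the remaining 3 libraries outside the range on 1 side, 234 of the 236 among them. Leaving out a library loosens the rule, and a gene of the 236 could then be lost only through the signal filter. That overlap therefore supports nothing. With the plko libraries added to the controls the count was 127.

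Lists of Notch genes gave no gene outside the control range in all 4 hairpin libraries, where 2.23% of all genes tested were. At that share a count of 0 in lists this short is not read as a result about Notch genes. The 5 ligands and receptors tested had a median log2 difference of -0.27, the 18 genes of processing and the nuclear complex 0.06 and the 9 targets -0.17, with 0.03 over all genes, and none passed the test. NOTCH3, a Notch receptor, was at 271, 204, 197 and 281 against 253, 306 and 369. APH1A, a subunit of gamma-secretase, was highest in log2 difference among the processing genes (0.69), at 174, 165, 122 and 165 against 74.2, 91.5 and 161. HES1, a direct Notch target in many cells, was at 277, 229, 248.7 and 229 against 256, 287 and 307. RBPJ 1 was inside the control range of HES1, and the other 3 hairpin libraries were below it. Of the 9 targets 5 had a negative and 4 a positive difference. HES5, another Notch target, had the largest (log2 1.18) at 2.98, 26.1, 5.47 and 13.5 against 0, 4.54 and 7.48, with RBPJ 2 and NFIB 2 above the controls. DTX2, a Deltex family protein, was the target with all 4 libraries above the control mean (log2 0.59), at 13.68, 13.75, 18.45 and 20.25 against 6.43 to 15.3.

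For some lists the medians of the hairpin libraries lay on both sides of those of the controls. The 20 interferon response genes had a pooled median of 0.01, made of 0.17, -0.70, -0.54 and 1.12. IFI6, an interferon-stimulated gene, had signals of 1277, 101, 259 and 1747 against 142, 235 and 524 in the controls. The 18 genes of the unfolded protein and integrated stress response had a pooled median of 0.34, made of 0.70, -0.32, 0.90 and 0.20, with controls from -0.07 to 0.25. The 16 basal epithelial genes were at -0.44, 0.56, 0.28 and -0.57, with controls from -0.31 to 0.36. The 14 squamous differentiation genes were placed otherwise, with a pooled median of -0.60 made of -1.60, -0.72, -0.40 and 0.02 and controls from -0.18 to 0.21. There 3 hairpin libraries were below the controls and NFIB 2 was among them, and 13 of the 14 genes had a negative difference. No gene of these 4 lists was outside the control range in all 4 libraries, where 2.23% of all genes tested were. None passed the test, where 0.0567% of all genes did, and nothing is read from these counts of 0. In all, 14 of the 236 genes belonged to any of the 25 lists.

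**Figure D3:**
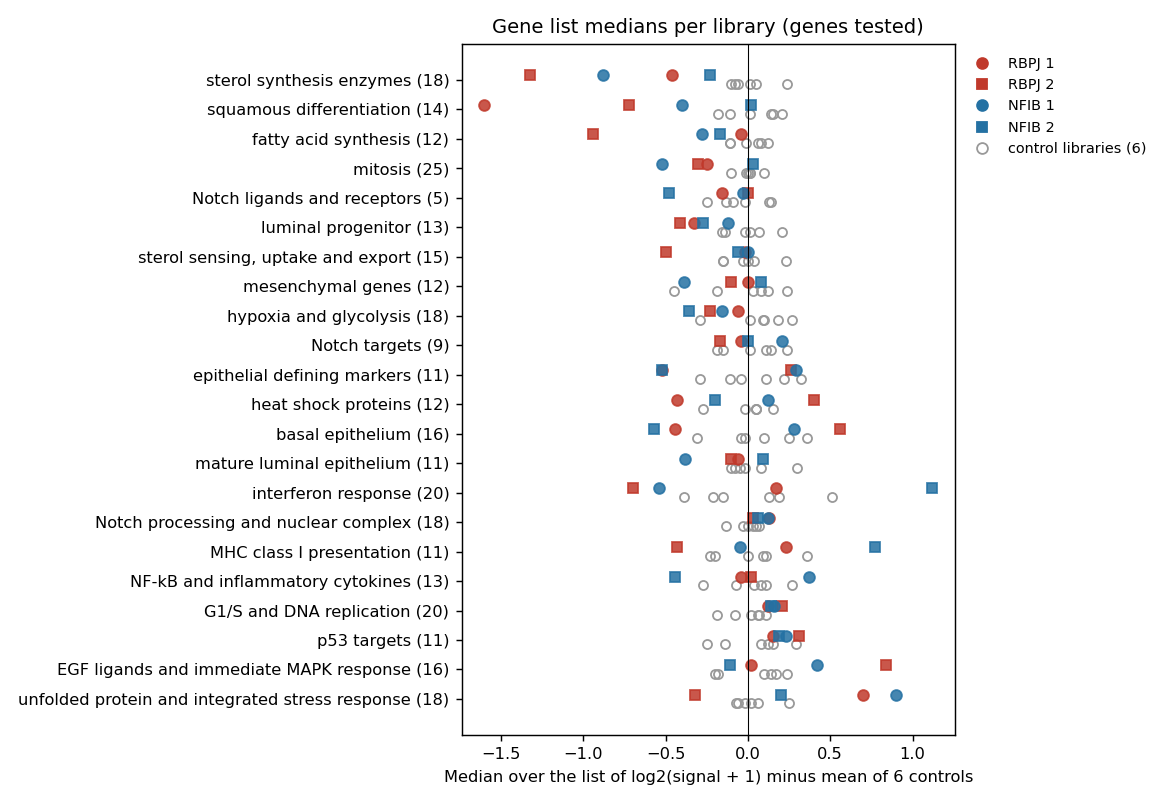
Median over each gene list of the difference of log2(signal + 1) from the control mean, per library, for lists with at least 5 genes tested (number in brackets). Filled symbols are single hairpin libraries and open circles controls. All 4 hairpin libraries lie left of the controls for sterol synthesis, and on both sides of them for the interferon response.

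The 2 targets were also compared with each other. The choice of genes used these same 4 libraries and leaves less room for a difference between them, so the counts over the 236 genes are a description. In a 3-level limma fit of the 10 libraries, 0 of 10577 genes differed between the RBPJ and the NFIB hairpins at an adjusted p under 0.05, 219 (2.07%) had an unadjusted p under 0.05, and edgeR and DESeq2 on the recovered reads also called 0. Of the 120 higher genes 0 had an unadjusted p under 0.05, and of the 116 lower genes 2 did (1.72%), DHCR7 and SLC35C1, a transporter of GDP-fucose. DHCR7 was lower with the RBPJ hairpins, by 0.79 on the log2 scale (SE 0.30). None of the 236 genes differed between the targets by 1 or more on the log2 scale, where 215 of all genes tested did. With 2 libraries a target, a failure to pass does not show that the targets acted alike. Without the library labelled RBPJ 1 the count was 95, 19 higher and 76 lower with RBPJ 2, a lone sample assumed to vary like the others.

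The genes nearest to separating the targets were outside the 236. SERPINB4, a serpin of squamous epithelium, was at 51.2, 20.4, 85.4 and 201 against 91.0, 183 and 263 in the controls, a log2 difference of -1.98 ± 0.45 (SE) between RBPJ and NFIB. It is near-identical to SERPINB3 and may share its reads. S100P, a calcium-binding protein, was at 407, 171, 826 and 588 against 243, 342 and 441 (-1.40 ± 0.33 between RBPJ and NFIB). The NFIB libraries were above every control for S100P, whereas RBPJ 2 was below them. S100A9, a calprotectin subunit, was at 125, 132, 197 and 370 against 284, 321 and 400 (-1.07 ± 0.26), with NFIB 2 alone among the controls. NFIB itself differed by 1.48, BAG2, a co-chaperone, by 1.06, OCRL, an inositol phosphatase, by 1.07, TOP1, topoisomerase I, by 1.0 and COPB2, a coatomer subunit, by 0.73. MOGAT2, an acyltransferase, was at 4.23, 0, 8.2 and 21.5 against 5.63 to 19.5 in the controls, and E2F2, a cell-cycle factor, differed by -0.97. All 10 had a limma adjusted p of 1.

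Whether the 236 genes also moved with other hairpins was read in libraries outside the comparison, FOXA1 (2 libraries) and KLF5 (2) each against plko (2). These 2 comparisons share the plko libraries, which are named for the empty vector and not for a control hairpin. An effect of carrying any hairpin therefore cannot be told apart here from one of the FOXA1 or KLF5 hairpins. Of the libraries used here, plko 1 held 375713 reads and FOXA1 2 held 537502, fewer than any library of the main comparison (580015 or more). With the FOXA1 hairpins, 26 of 10577 genes (0.246%) passed limma at an adjusted p under 0.05, and 0 of the 236 did. The median log2 difference was 0.10 for the genes higher with RBPJ and NFIB, 0.03 for the lower ones and 0.00 for all. Of the 120 higher genes 67 (55.8%) were above plko where 50.1% of all genes were, and of the 116 lower genes 55 (47.4%) were below it where 49.8% were. At an unadjusted p under 0.05, 3 of the higher genes were above plko and 1 below, and of the lower genes 9 were above and 11 below, where 7.05% of all genes were above and 5.59% below. The sterol list was at a median of -0.13. By median and sign the 236 genes therefore lay close to genes in general in the FOXA1 libraries. At an unadjusted p under 0.05 the lower genes below plko were a larger share than among all genes, and the higher genes above it a smaller one. With libraries this shallow, small shifts may have been missed.

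With the KLF5 hairpins 98 genes (0.927%) passed against plko, 0 of the 120 higher and 6 of the 116 lower genes among them. The median was 0.17 for the higher genes, -0.16 for the lower and 0.02 for all. Of the higher genes 74 (61.7%) were above plko, where 51.4% of all genes were, and of the lower genes 68 (58.6%) were below it, where 48.5% were. At an unadjusted p under 0.05, 17 of the higher genes were above plko and 3 below, and of the lower genes 10 were above and 25 below, where 9.27% of all genes were above and 6.99% below. The 6 that passed did not go one way. FGFBP1, which carries growth factors out of the matrix, was at 15.6 and 10.5 with the KLF5 hairpins against 101 and 48.3 in plko, HDDC2 at 40.5 and 47.8 against 108 and 99.8, and PLCXD3 at 202 and 141 against 397 and 331. CPNE1, a copine, was higher, at 250.2 and 203 against 83.8 and 95.4. The chemokine CCL2 (32.7 and 70.0 against 0 and 12.4) and the heat shock factor HSF4 (15.6 and 25.7 against 0 and 4.96) were higher too, with a plko library at 0.

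Of the 6 genes that passed with RBPJ and NFIB, several had the same sign with KLF5, without passing. PABPC1 was at 465 and 400.2 against 702 and 787 in plko (log2 -0.78), and PABPC3 at 43.4 and 70.0 against 132 and 123 (log2 -1.20, limma adjusted p = 0.0541). ACAT2 was at 81.8 and 57.2 against 210 and 121 (log2 -1.21, limma adjusted p = 0.0568). NRP1 went the other way, at 188 and 180 against 94.9 and 121 (log2 0.77), and HSPA1B was at 78.9 and 60.7 against 50.7 and 45.9 (log2 0.51). DHCR7 was at log2 0.03 in KLF5 against plko. With the FOXA1 hairpins PABPC1 was at 822 and 748, ACAT2 at 140 and 144 and NRP1 at 105 and 87.1, each within or near the plko values. PABPC3 was at 186 and 155 with those hairpins, both above plko (log2 0.41), and HSPA1B at 68.5 and 43.6 (log2 0.18).

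**Figure D4:**
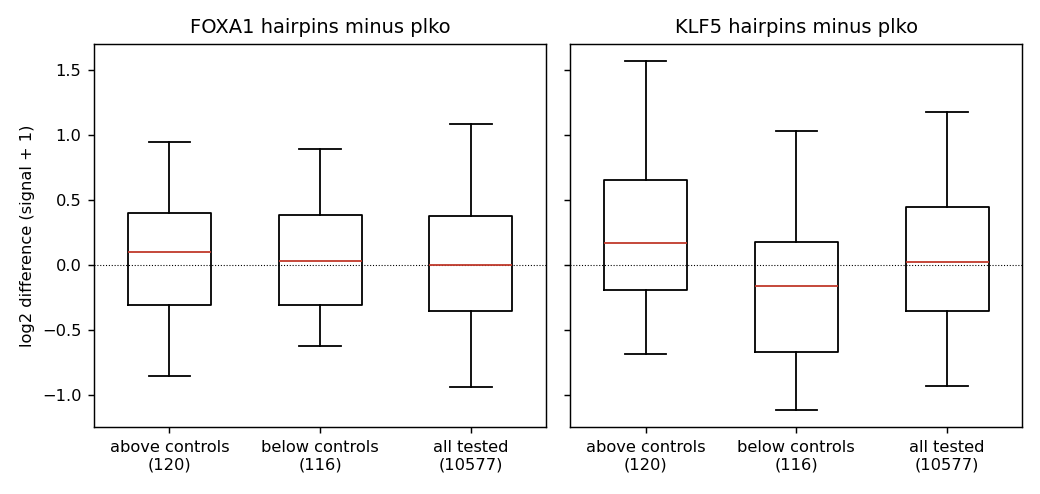
Log2 differences of FOXA1 (left) and KLF5 (right) hairpin libraries from plko for the genes above and below the control range with RBPJ and NFIB and for all genes tested. Boxes span the quartiles with the median in red, and whiskers the central 90% of genes. The medians are 0.10, 0.03 and 0.00 for FOXA1 and 0.17, -0.16 and 0.02 for KLF5.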

How the data were processed

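RNA of 16 HCC70 libraries was measured, of which 10 enter the main comparison. Per the labels' protocols, RNA was purified with a single-cell kit, and 3′ cDNA was barcoded in batches and amplified by in vitro transcription as in CEL-Seq. The authors deposited 1 table of normalized signal, named as normalized with DESeq2 and made, from the values, of read counts divided by 1 factor per library, and the submitters' processing notes name build GRCh37. The sources used here name no aligner or counter. Dividing each library by its smallest step gave whole reads for 100% of values (tolerance 0.05). Symbols were found for 11259 of 11282 identifiers. 2 columns that match no sample were not used.

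Limma 3.58.1 (R 4.3.3) with a mean-variance trend was fitted to log2(signal + 1), 4 libraries against 6. The fold scale understates changes of low genes. Tests were two-sided with Benjamini-Hochberg adjustment at 0.05, without a replicate block, and the script was tested on simulated data. EdgeR 4.0.16 and DESeq2 1.42.0 on the recovered reads, other pseudocounts (0.5 and 5), filters (none and 20), TMM scaling, plko added and each library left out were alternatives. Libraries of a pair differed by more than sampling noise (chi-square per degree of freedom 1.96 to 18.8). The labels do not say that libraries came from separate cultures, so p-values cover only the spread among these samples, which may be technical.

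The genes, lists and tests were chosen with earlier results of these data known. Named genes were the targets and their family, the 15 largest differences in each direction among genes outside the control range with a mean of at least 20, genes that passed, list members among either, and 5 genes each way between RBPJ and NFIB. Other genes given with values (near copies, overlapping genes, list examples such as HMGCS1, MSMO1, SCD, CENPE, CA9, HES5, DTX2, APH1A and IFI6, and those that passed with KLF5) were chosen after their values were seen. Promoters came from the RefSeq table (GRCh38.p14), first start per symbol. Some genes are not reported here by name.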

Additional observations from a re-analysis of the deposited data

Results flagged for a closer look

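Among 106 groups of library values examined for a lone extreme, 2 held one, and chance alone gives about 1 in 20. GCC1 was at 63.5 in NFIB 1 and at 38.8 to 40.3 in the other 3 hairpin libraries. MCM5 was at 82.7 in shRFP 2 and at 94.2 to 98.7 in the other 5 controls.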

How the results depend on the processing

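The count of 6 genes that passed was 5 to 7 with a pseudocount of 0.5 or 5, no filter or a filter of 20, TMM scaling, plko added, the 3-level factor, all 16 libraries in the fit and edgeR. Among these, ENSG00000269242 no longer passed with the filter of 20, with plko added or with all 16 libraries, and NRP1 no longer passed with the 3-level factor. Limma without trend gave 0 (1031 at an unadjusted p under 0.05) and DESeq2 52, 10 higher and 42 lower. Leaving out 1 library gave 0 to 73, with 13 without RBPJ 1, 12 without RBPJ 2, 0 without NFIB 1 or shRFP 2, 73 without NFIB 2 and 3 without shRFP 1 or shLACZ 2. The cause was not tested. The 236 genes outside the control range became 127 with plko added, and 304 to 597 with 1 library fewer, which loosens the rule: 454 without RBPJ 1, 528 without RBPJ 2, 597 without NFIB 2, 379 without shLACZ 1 and 358 without shLUC 1. With a filter of 20 there were 177, 75 higher and 102 lower. Between RBPJ and NFIB the count of 0 became 95 without RBPJ 1 and 2 without NFIB 1, so leaving out 1 library gave 0 to 95. In FOXA1 against plko the median of the higher genes was 0.08 with a pseudocount of 5 and 0.02 to 0.07 with 1 library fewer, and that of the lower genes -0.02 to 0.04. In KLF5 against plko these ranges were 0.11 to 0.28 and -0.18 to -0.07. NFIA (-0.18) ranged from -0.36 to 0.01 with 1 library fewer and NFIC (-0.07) from -0.22 to 0.02, both above 0 without RBPJ 2. Of the values of single named genes under the alternatives, 1105 kept direction and side of the threshold, 37 newly passed, 33 no longer passed and 2 changed sign.

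A replicate block on the numbers 1 and 2 gave 7 genes for the pooled comparison and 0 between RBPJ and NFIB. The numbers were not taken as a pairing, since the correlation of same-numbered libraries' deviations was over 0.1 in 1 of 10 pairs of groups (-0.20 to 0.216). Depth limits the scarce genes: median reads per gene ranged from 18 to 101 over the 10 libraries.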
